A study of Mus with 7 samples.

Results

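The BCL2 family genes followed here were 10 genes, picked by symbol from the 31053 genes of the count tables. They were 4 survival genes (Bcl2a1b, Bcl2a1d, Mcl1 and Bcl2l1), 2 effector genes (Bax and Bak1) and 4 BH3-only genes (Bcl2l11, Bid, Bbc3 and Pmaip1). Fetal liver-derived macrophages (FLMs) of wild-type C57BL/6J mice, a self-renewing culture kept in GM-CSF, were profiled by droplet RNA sequencing in 7 libraries, 1 library per condition. Con cells were collected in medium with 10% fetal bovine serum (FBS), before any treatment. The other 6 libraries came from cells moved for 24 h to 0.25% FBS, either with docosahexaenoic acid (DHA, 25 µM, carried on 8.3 µM of bovine serum albumin) or with the albumin alone (Veh), and then exposed to lipopolysaccharide (LPS, 20 ng/mL). They are named by treatment and hours of LPS, so that Veh.LPS.0 had no LPS and DHA.LPS.4 had 4 h of it after DHA. All 7 conditions had 30 ng/mL GM-CSF, itself a growth and survival factor for macrophages, so no library shows these genes without it. Con differs from Veh.LPS.0 in serum, albumin and a day of culture together, and these cannot be told apart.

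The BCL2 family sets the threshold of the mitochondrial pathway of cell death. Effector proteins permeabilize the outer mitochondrial membrane and let cytochrome c escape, survival proteins hold effectors and their activators in check, and BH3-only proteins, made or activated on stress, bind the survival proteins or switch on the effectors. The genes of survival members such as A1 and MCL1 are known targets of inflammatory signalling. The data are mRNA, and many members are also controlled as proteins.

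Levels are given in CPM, the usual depth-scaled count: the unique molecular identifiers (UMIs) of a gene summed over the intact cells of a library, scaled by all UMIs of those cells. Intact cells were barcodes with over 20000 UMIs, at least 2000 genes and under 20% of UMIs from mitochondrially encoded (mt-) genes. They numbered 692 to 3073 per library, with a median depth of 29369 to 56239 UMIs and 22045775 to 125716982 UMIs in all. Barcodes with at least 20% mt- UMIs, called high-mt barcodes here, made up 29.0% to 54.7% of the barcodes in Con and Veh and 74.4% to 80.0% in DHA, so the intact cells were 12.1% to 18.5% of the DHA barcodes and 40.6% to 62.5% of the others. Every intact cell held at least 3 of 9 macrophage markers. None held 3 markers of neutrophils, mast cells, lymphoid, erythroid, dendritic, hepatocyte or stromal cells, whose summed lists reached at most 7.89 CPM, for neutrophils in DHA.LPS.4. Any pair of libraries shared 1 to 22 cell barcodes, and 0 to 4 among intact cells. With 1 library per condition no difference has a replicate check. Ratios between libraries carry exact binomial 95% intervals that cover counting error only, and no p-value is given. Genes are counted as higher or lower by size: a ratio beyond 1.5-fold, for genes detected in 25% or more of the cells of one of the 2 libraries. All 10 genes met the limit on cells in every comparison, and 9 of 10 met it in every library, the exception being Pmaip1, found in 14.7% of DHA.LPS.4 cells.

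Of the survival genes, Bcl2a1b and Bcl2a1d had their highest levels 4 h after LPS, Mcl1 peaked at 1 h, and Bcl2l1 was higher only at 4 h by the 1.5-fold limit. Of the BH3-only genes, Bcl2l11 was higher at both hours and Pmaip1 was lowest at 4 h. Summed by role, the survival genes had 1001 CPM in Con, 861, 2308 and 3443 CPM in the Veh series (0, 1 and 4 h of LPS in that order, as in all that follows), and 765, 2071 and 2813 CPM in the DHA series. The BH3-only genes had 112 CPM in Con, 124, 307 and 268 CPM in the Veh series, and 125, 225 and 187 CPM in the DHA series. The effectors had 864 CPM in Con, 821, 771 and 592 CPM in the Veh series, and 839, 764 and 641 CPM in the DHA series. Each tag marks 1 captured 3′ end, so sums across genes need no correction for length.

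**Figure D1:**
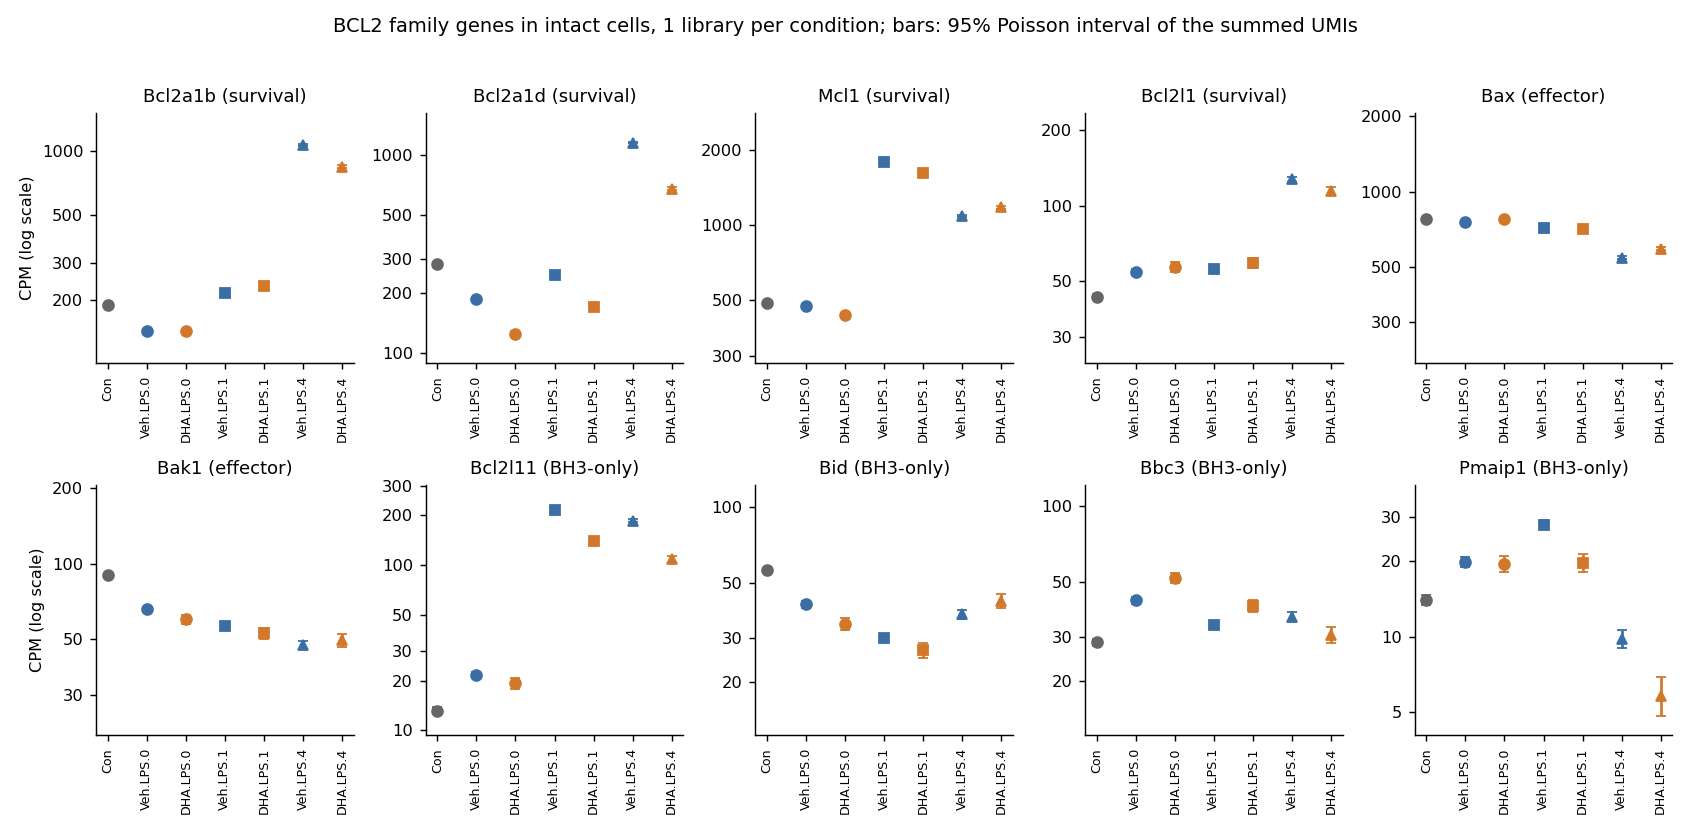
Level of each of the 10 genes in the intact cells of the 7 libraries, in CPM on a log axis; grey marks Con, blue Veh, orange DHA, with circles for no LPS, squares for 1 h and triangles for 4 h, and bars the 95% Poisson interval of the summed UMIs. Bcl2a1b and Bcl2a1d are highest in Veh.LPS.4, at 1067 and 1160.4 CPM, Mcl1 and Bcl2l11 in Veh.LPS.1, at 1789 and 215 CPM, and Bax stays between 545 and 779 CPM.

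Bcl2a1b and Bcl2a1d encode near-identical copies of the A1 survival protein. Both genes lie on chromosome 9 of the mm10 build, at chr9:89199273-89207838 for Bcl2a1b and chr9:88723288-88731850 for Bcl2a1d, with the third copy, Bcl2a1a, between them at chr9:88956920-88962416. Tags that match more than 1 copy cannot be placed, so the split between the copies is uncertain. Bcl2a1b had 190.4 CPM in Con, 144, 216 and 1067 CPM in the Veh series, and 144, 233 and 844 CPM in the DHA series. The intervals overlapped only for the 2 libraries without LPS in 0.25% FBS, and both 4 h libraries lay far above the rest. Bcl2a1d had 281 CPM in Con, 187, 247 and 1160.4 CPM in the Veh series, and 125, 169.8 and 678 CPM in the DHA series. Here no neighbouring libraries overlapped, and DHA was below Veh at each hour. The sum of the 3 copies was 546 CPM in Con, 388, 556 and 2764 CPM in the Veh series, and 322, 488 and 1888 CPM in the DHA series.

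Mcl1, a survival gene whose protein is short-lived, had 487 CPM in Con, 475, 1789 and 1088 CPM in the Veh series, and 439, 1609 and 1177 CPM in the DHA series. All 4 LPS libraries lay above the 3 others, with both 1 h libraries above both 4 h libraries, and no neighbours overlapped. Bcl2l1, which encodes BCL-XL, had 43.2 CPM in Con, 54.3, 55.8 and 127 CPM in the Veh series, and 56.9, 59.3 and 114 CPM in the DHA series. The 0 h and 1 h libraries formed a chain of overlapping neighbours, with Con below it and both 4 h libraries above.

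Bax, which encodes an effector that moves from the cytosol to mitochondria, had 774 CPM in Con, 755, 715 and 545 CPM in the Veh series, and 779, 711 and 592 CPM in the DHA series. Its span over the 7 libraries was 1.43-fold, the narrowest of the 10 genes. Bak1, an effector that resides in the outer mitochondrial membrane, had 89.8 CPM in Con, 65.7, 56.5 and 47.4 CPM in the Veh series, and 59.95, 52.6 and 49.4 CPM in the DHA series. Con was highest for Bak1, and from DHA.LPS.0 downward every library overlapped its neighbour.

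Bcl2l11, which encodes the BH3-only activator BIM, had the widest span, 16.3-fold. It had 13.2 CPM in Con, 21.6, 215 and 185 CPM in the Veh series, and 19.3, 139 and 108 CPM in the DHA series. The 4 LPS libraries lay far above the others, DHA was below Veh at both LPS hours, and only Veh.LPS.0 and DHA.LPS.0 overlapped. Pmaip1, which encodes the BH3-only protein NOXA, an antagonist of MCL1, had 14.1 CPM in Con, 19.9, 28.1 and 9.78 CPM in the Veh series, and 19.6, 19.7 and 5.81 CPM in the DHA series. It was highest in Veh.LPS.1 and lowest in DHA.LPS.4, a gap of 4.84-fold resting on 2655 and 128 UMIs.

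Bid, whose protein is cut by caspase-8 and links death receptors to mitochondria, had 56.1 CPM in Con, 41.0, 30.2 and 37.4 CPM in the Veh series, and 34.3, 26.9 and 42.4 CPM in the DHA series. Con was highest, and the 1 h library was the lowest of its series for both treatments. Bbc3, which encodes the BH3-only protein PUMA, had 28.6 CPM in Con, 42.0, 33.5 and 36.2 CPM in the Veh series, and 51.5, 39.8 and 30.6 CPM in the DHA series. DHA.LPS.0 stood alone at the top, and all other libraries from Con to Veh.LPS.0 overlapped a neighbour in order.

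Shares of cells with a UMI were compared after each intact cell was thinned to 20000 UMIs. Bcl2l11 was found in 20.0% of Con cells, 31.5%, 90.1% and 85.7% of cells of the Veh series and 30.2%, 82.9% and 76.3% of cells of the DHA series, against unthinned shares of 37.0%, then 49.0%, 94.1% and 97.8%, and then 53.01%, 90.4% and 84.0%. Most cells therefore held a Bcl2l11 tag after LPS. Pmaip1 was found in 22.4% of Con cells, in 30.1%, 39.6% and 15.6% across the Veh series and in 30.9%, 29.8% and 10.5% across the DHA series at equal depth, against unthinned shares of 39.7%, then 47.2%, 50.9% and 34.0%, and then 53.9%, 45.0% and 14.7%. Bax, Mcl1, Bcl2a1b and Bcl2a1d had a tag in 85.2% or more of cells in each library at equal depth and in 96.8% or more without thinning. No other cell type was present in which the contribution of free RNA to these shares could be measured, so that contribution was not tested.

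Of the 10 genes, serum reduction together with albumin (Veh.LPS.0 against Con) left only Bcl2l11 past the limit. By size, 1 of 10 genes was higher and 0 were lower, where 17.1% of all genes tested were past the limit, 9.31% higher and 7.76% lower. Bcl2l11 was 1.64-fold higher in Veh.LPS.0 (interval 1.53 to 1.75), a ratio above that of 93.2% of the genes tested. Split by the proliferation marker Mki67, at 20000 UMIs per cell and chosen after the data were seen, its ratio was 1.75 (1.58 to 1.95) in cells with a Mki67 UMI and 1.01 (0.798 to 1.28) in cells without, of which Con had 9.25% and Veh.LPS.0 22.3%. Just inside the 1.5-fold limit, and so not counted, were Bcl2a1d at a ratio of 0.667 (0.655 to 0.679) and Bbc3 at 1.47 (1.40 to 1.53). Pmaip1 had a ratio of 1.41 (1.32 to 1.51) and Bcl2l1 of 1.26 (1.21 to 1.30). In the split by Mki67, Bbc3 had 1.57 (1.46 to 1.68) in cells with a Mki67 UMI and 1.22 (1.03 to 1.45) in cells without. Pmaip1 had 1.54 (1.39 to 1.70) and 1.29 (0.949 to 1.78) in the same order. Bcl2l1 went the other way, at 1.19 and 1.39. Bak1, Bid and Bcl2a1b had ratios of 0.731, 0.730 and 0.758, while Mcl1 and Bax, at 0.976 and 0.975, were nearly level. This count moved between 0 and 2 with the processing.

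After 1 h of LPS in Veh cells, Mcl1 and Bcl2l11 were the members past the limit. By size, 2 of 10 genes were higher and 0 lower (8.39% of all genes in either direction, 4.15% higher and 4.24% lower). Bcl2l11 was 9.96-fold higher (9.53 to 10.4), above 99.5% of the genes tested, and Mcl1 was 3.77-fold higher (3.73 to 3.81), above 99.0%. Bcl2a1b lay at the edge of the limit with a ratio of 1.498 (1.47 to 1.53), just inside it, and Pmaip1 had 1.41 (1.33 to 1.499). Bid had a ratio of 0.736 (0.702 to 0.773) and Bbc3 of 0.798 (0.761 to 0.836), and the other 4 genes lay between 0.861 and 1.32. When libraries were scaled by trimmed means (TMM) in place of totals, Bcl2a1b and Pmaip1 also passed, giving 4 higher genes.

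In DHA cells, 1 h of LPS gave 3 higher genes of 10 and 0 lower (9.63% of all genes in either direction, 4.66% higher and 4.97% lower). Bcl2l11 was 7.17-fold higher (6.61 to 7.79), Mcl1 3.67-fold (3.60 to 3.73) and Bcl2a1b 1.62-fold (1.56 to 1.68). Pmaip1 had a ratio of 1.01 (0.904 to 1.13) here, against 1.41 in Veh. The difference of the LPS log2 ratios, DHA minus Veh, was -0.49 for Pmaip1 (-0.66 to -0.31) and -0.47 for Bcl2l11 (-0.61 to -0.34), in counting error alone. For Mcl1 it was -0.04 (-0.07 to -0.01).

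After 4 h of LPS the whole profile shifted: the median log2 ratio of all genes tested was -0.36 in Veh and -0.29 in DHA when libraries were scaled by their totals, and 0.07 and 0.01 with TMM. Changes at 4 h are therefore read against those medians. In Veh, 5 of 10 genes were higher and 1 was lower (48.5% of all genes in either direction, 10.2% higher and 38.3% lower; with TMM 21.6% higher and 21.1% lower, and still 5 and 1 of the 10). Bcl2l11 was 8.57-fold higher (8.18 to 8.98), Bcl2a1b 7.39-fold (7.26 to 7.53) and Bcl2a1d 6.20-fold (6.10 to 6.30). These 3 lay above 98.8% or more of the genes tested. Bcl2l1 was 2.35-fold higher (2.27 to 2.43) and Mcl1 2.29-fold (2.26 to 2.32), so all 4 survival genes were past the limit. Pmaip1 had a ratio of 0.492 (0.447 to 0.540).

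Bax and Bak1 both had a log2 ratio of -0.47 at 4 h in Veh, beside the median of -0.36 over all genes, and -0.04 with TMM. In high-mt barcodes they had -0.41 and -0.60, where the median of all genes was -0.10. Bid had a log2 ratio of -0.13 and Bbc3 of -0.22 by totals, which became 0.30 and 0.22 with TMM. The direction of these 2 BH3-only genes at 4 h in Veh thus turned with the scaling. Bcl2l11 and Pmaip1 kept theirs under every setting tried, with log2 ranges of 3.03 to 3.53 and -1.11 to -0.59. High-mt barcodes alone, not among those settings, gave 2.74 for Bcl2l11 and -0.82 for Pmaip1.

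In DHA cells at 4 h, 5 of 10 genes were higher and 2 lower (43.2% of all genes in either direction, 9.64% higher and 33.6% lower). Bcl2a1b was 5.88-fold higher (5.70 to 6.07), Bcl2l11 5.59-fold (5.13 to 6.09), Bcl2a1d 5.42-fold (5.24 to 5.61), Mcl1 2.68-fold (2.63 to 2.73) and Bcl2l1 2.01-fold (1.89 to 2.13). Pmaip1 had a ratio of 0.297 (0.244 to 0.359) and Bbc3 of 0.595 (0.543 to 0.650). With TMM, where 18.3% of all genes were higher and 21.0% lower, the split was 6 higher and 1 lower: Bid, at a log2 ratio of 0.31 by totals, reached 0.61 and Bbc3 moved from -0.75 to -0.45. The LPS log2 ratio in DHA minus that in Veh was -0.73 for Pmaip1 (-1.03 to -0.43), -0.62 for Bcl2l11 (-0.76 to -0.48), -0.54 for Bbc3 (-0.68 to -0.39) and 0.44 for Bid (0.29 to 0.58). For the survival genes it ran from -0.33 for Bcl2a1b to 0.23 for Mcl1. The LPS comparisons within a treatment share their 0 h library, and the DHA comparisons below reuse the same 6 libraries.

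**Figure D2:**
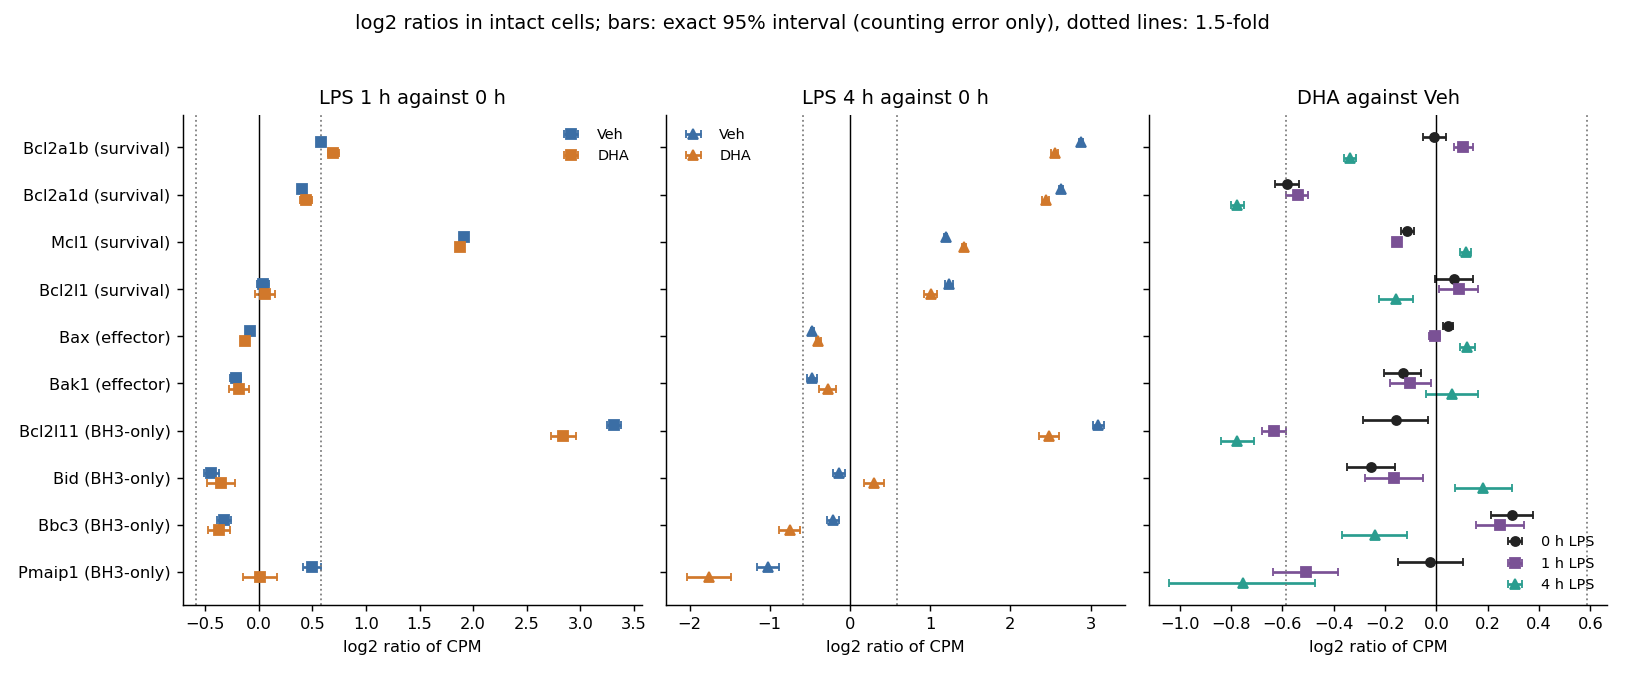
log2 ratios of CPM for the 10 genes in intact cells: LPS against no LPS at 1 h and at 4 h, in Veh (blue) and DHA (orange), and DHA against Veh at 0, 1 and 4 h; bars are exact 95% intervals for counting error and dotted lines mark 1.5-fold. LPS moves Bcl2l11 to 3.32 in Veh and 2.84 in DHA at 1 h, while with DHA Bcl2a1d lies between -0.78 and -0.54 at each hour and Bcl2l11 and Pmaip1 fall below -0.5 only with LPS.

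DHA against Veh gave few members past the limit, all of them lower with DHA. The intact cells compared were 12.1% to 18.5% of the DHA barcodes and 40.6% to 55.6% of the Veh barcodes, and the part of this difference in the results was not tested. Without LPS it was 0 of 10 (2.03% of all genes, 1.08% higher and 0.949% lower), but Bcl2a1d, with a ratio of 0.668 (0.646 to 0.690), lay at the edge, at percentile 0.96 of the genes tested, whereas Bcl2a1b had 0.995 (0.963 to 1.03). Bbc3 had a ratio of 1.23 (1.16 to 1.30), above 94.9% of the genes tested, and Bid one of 0.838 (0.785 to 0.894). After 1 h of LPS, 1 of 10 genes was lower (3.07% of all genes in either direction, 1.33% higher and 1.73% lower), Bcl2l11 at 0.645 (0.624 to 0.667). Bcl2a1d at 0.687 (0.667 to 0.708) and Pmaip1 at 0.703 (0.643 to 0.767) lay inside the limit. Mcl1 had 0.899 (0.890 to 0.908) and Bcl2a1b 1.08 (1.05 to 1.10).

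After 4 h of LPS, 3 of 10 genes were lower with DHA and 0 higher (4.64% of all genes in either direction, 2.22% higher and 2.42% lower; with TMM 1.25% higher, 3.42% lower and again 3 of 10 lower). Bcl2a1d had a ratio of 0.584 (0.574 to 0.595), Bcl2l11 of 0.584 (0.559 to 0.611) and Pmaip1 of 0.594 (0.486 to 0.720), at percentiles 1.38, 1.39 and 1.51 of the genes tested. Bcl2a1b had a ratio of 0.791 (0.778 to 0.804), Bbc3 of 0.846 (0.775 to 0.923) and Bcl2l1 of 0.897 (0.857 to 0.939). Mcl1 had 1.08 and Bax 1.09, ratios whose log2 values of 0.11 and 0.12 became -0.01 and 0.00 with TMM, and Bak1 moved from 0.06 to -0.06.

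Cells with and without a tag of Mki67 were then compared apart at 20000 UMIs per cell, because the share of cells with a Mki67 UMI differed between the paired libraries: 77.7% in Veh.LPS.0 and 60.5% in DHA.LPS.0, 76.7% and 62.3% at 1 h, and 36.7% and 43.8% at 4 h. At 4 h, the DHA ratio of Bcl2l11 was 0.566 (0.515 to 0.622) in cells with a Mki67 UMI and 0.663 (0.613 to 0.716) in cells without. That of Bcl2a1d was 0.604 and 0.590, and that of Pmaip1 0.537 and 0.623. At 1 h, Bcl2l11 had 0.622 and 0.642 in the same order. The lower levels of these genes with DHA were thus present within both classes of cells.

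The split between the A1 copies differed with DHA. Bcl2a1d made up 59.6% of the UMIs of Bcl2a1b and Bcl2a1d together in Con, 56.4%, 53.3% and 52.1% in the Veh series, and 46.5%, 42.2% and 44.5% in the DHA series, with exact intervals at most 1.01 points to either side. All 4 libraries without DHA lay above 50% and all 3 with DHA below it. In high-mt barcodes, which were not used for those values, the share was 62.0% in Con, 60.9%, 56.2% and 54.9% in the Veh series, and 52.7%, 45.9% and 47.7% in the DHA series. There too DHA was below Veh at each hour, by 8.18, 10.2 and 7.22 points. Whether tags of the copies were placed alike in all libraries was not tested. Of the third copy, Bcl2a1a, Veh.LPS.4 had 536 CPM and DHA.LPS.4 366 CPM, a ratio of 0.682 (0.665 to 0.699), and the sum of the 3 copies had 0.683 (0.676 to 0.690) at 4 h, 0.877 (0.862 to 0.893) at 1 h and 0.829 (0.812 to 0.847) without LPS.

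**Figure D3:**
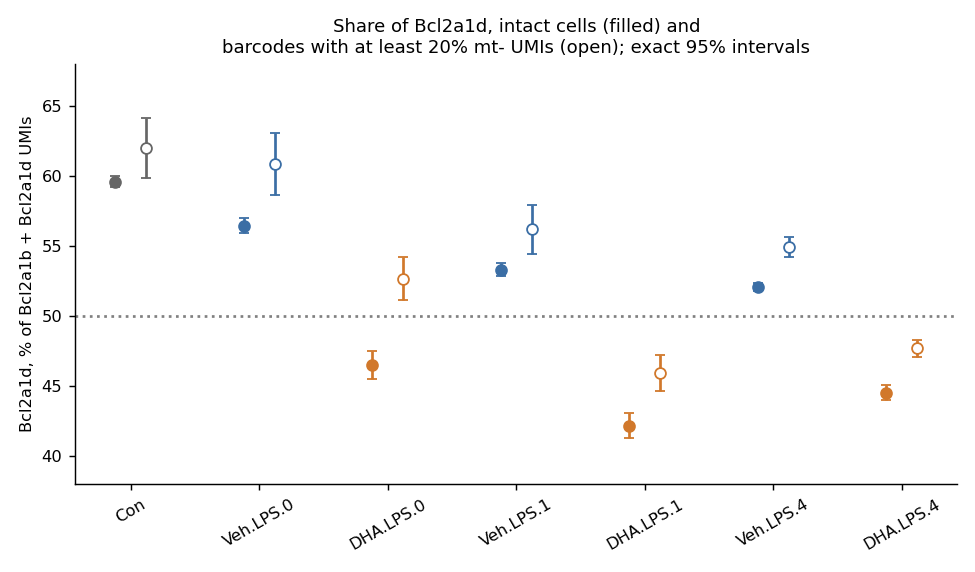
Share of Bcl2a1d among the UMIs of Bcl2a1b and Bcl2a1d, in percent, for each library, in intact cells (filled) and high-mt barcodes (open), with exact 95% intervals and a dotted line at 50%; the axis starts at 38%. In intact cells Con and Veh lie between 52.1% and 59.6% and DHA between 42.2% and 46.5%.

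High-mt barcodes of each library were set against its intact cells on CPM of nuclear UMIs, with mt- UMIs left out of the totals because they define the classes. No member was past 1.5-fold in the same direction in all 7 libraries (0 of 10, where 18.4% of all genes were, 8.89% higher and 9.51% lower). By any size, 7 of the 10 genes were lower in high-mt barcodes in each of the 7 libraries and 0 were higher in each (38.1% and 28.9% of all genes): Bax, Bak1, Bcl2a1b, Bcl2a1d, Bid, Bbc3 and Pmaip1. The interval lay below 1 in 7 of 7 libraries for all of these but Bbc3, with 4 of 7. Their log2 ratios ran from -0.74 to -0.46 for Bax, from -1.10 to -0.32 for Bak1 and from -1.23 to -0.46 for Pmaip1, where the median of all genes lay between -0.33 and 0.02. Mcl1 stayed within -0.12 and 0.24, and Bcl2l1 within -0.38 and 0.06. High-mt barcodes had a median depth of 5770 to 11781 UMIs, well below intact cells, and thinning all barcodes to 1000 nuclear UMIs left Bax, Bak1, Bcl2a1b, Bcl2a1d and Bid lower in 7 of 7 libraries. Only 15 (Veh.LPS.1) to 102 (Veh.LPS.4) high-mt barcodes per library also passed the limits on UMIs and genes. Among these, Bax, Bcl2a1b, Bcl2a1d and Bid were lower in 7 of 7 libraries, and Bak1, Bbc3 and Pmaip1 in 6 of 7. The interval lay below 1 in 7 of 7 for Bax and Bcl2a1b and in 6 for Bcl2a1d. It did so in 3 for Bid and Bak1, 2 for Bbc3 and 0 for Pmaip1. With only barcodes of at least 50% mt- UMIs set against intact cells, Bbc3 was higher in 6 of 7 libraries, Bcl2l1 in 6 of 7 and Bid in 2 of 7. The interval lay above 1 in only 1 library for Bbc3, 3 for Bcl2l1 and 0 for Bid. Mcl1 was higher in 7 of 7, by 0.21 to 0.49, with the interval above 1 in each.

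Bcl2l11 went the other way. Its nuclear CPM in high-mt barcodes was 18.7 in Con, 34.0, 425 and 227 in the Veh series and 25.4, 267 and 90.4 in the DHA series, against 14.3, then 23.4, 231 and 199, and then 20.9, 149.8 and 116 in intact cells. It was thus higher in high-mt barcodes in 6 of 7 libraries, with DHA.LPS.4 the exception at a log2 ratio of -0.36, and past 1.5-fold in the 2 libraries of 1 h LPS, at 0.88 in Veh and 0.83 in DHA. Genes higher past that limit were 25.9%, 25.2%, 18.6% and 23.7% of those tested in Con and then the Veh series, and 24.9%, 19.4% and 17% in the DHA series. With TMM Bcl2l11 was higher in 5 of 7 libraries, and with mt- UMIs kept in the totals in 2 of 7. With all barcodes thinned to 1000 nuclear UMIs it was higher in 6 of 7, at log2 ratios from -0.07 to 1.00. There it was counted past 1.5-fold in 1 library, and the interval lay above 1 in 2 and below 1 in 0. In the 15 to 102 high-mt barcodes per library past the limits on UMIs and genes it was higher in 6 of 7, past 1.5-fold in 3, and lower past 1.5-fold in 1. The interval there lay above 1 in 2 of 7 libraries and below 1 in 1. Within Veh.LPS.1 the nuclear CPM of Bcl2l11 was 231 at under 10% mt- UMIs, 243 from 10% to 20%, 394 from 20% to 40%, 541 from 40% to 60% and 609 (478 to 764) in the 90 barcodes at 60% or more. The same classes of DHA.LPS.1 had 146, 183, 241, 355 and 634 (516 to 772), the last from 46 barcodes. By its value each class thus lay above the one before in both libraries of 1 h LPS. The classes under 20% held intact cells only, while those from 20% up had no limit on UMIs or genes. The step at 20% therefore also went from deep to shallow barcodes, with median depths of 29369 and 5770 UMIs in Veh.LPS.1. In DHA.LPS.1 these were 37202 and 8310 UMIs. Depth was not made equal across these classes, so its part in this step was not tested. In Veh.LPS.1 the intervals of the first 2 classes overlapped (228 to 234 and 229 to 258), as did those of the last 2 (505 to 579 and 478 to 764). No such order was seen in the other 5 libraries, where Veh.LPS.4 went from 199 to 282 and DHA.LPS.4 stayed between 85.3 and 117.

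**Figure D4:**
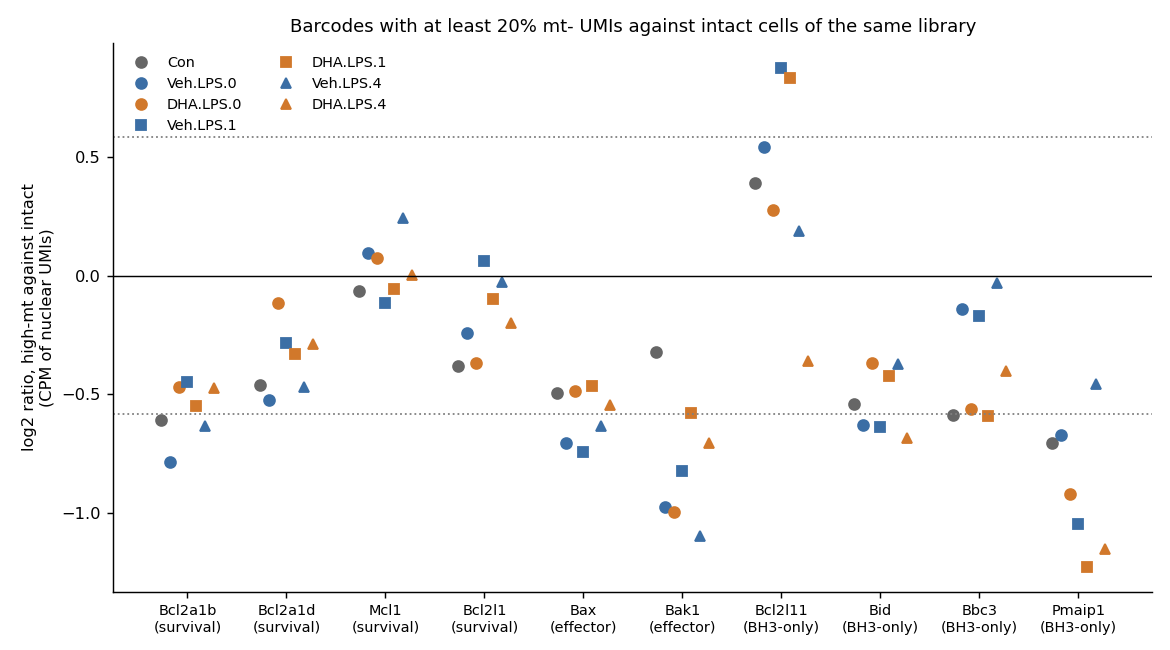
log2 ratio of nuclear CPM between high-mt barcodes and intact cells of the same library, for the 10 genes; grey is Con, blue Veh and orange DHA, circles are libraries without LPS, squares 1 h and triangles 4 h, and dotted lines mark 1.5-fold. Bcl2l11 is above 0 in 6 of 7 libraries, up to 0.88, while Bax, Bak1, Bcl2a1b, Bcl2a1d, Bid, Bbc3 and Pmaip1 are below 0 in all 7.

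**Figure D5:**
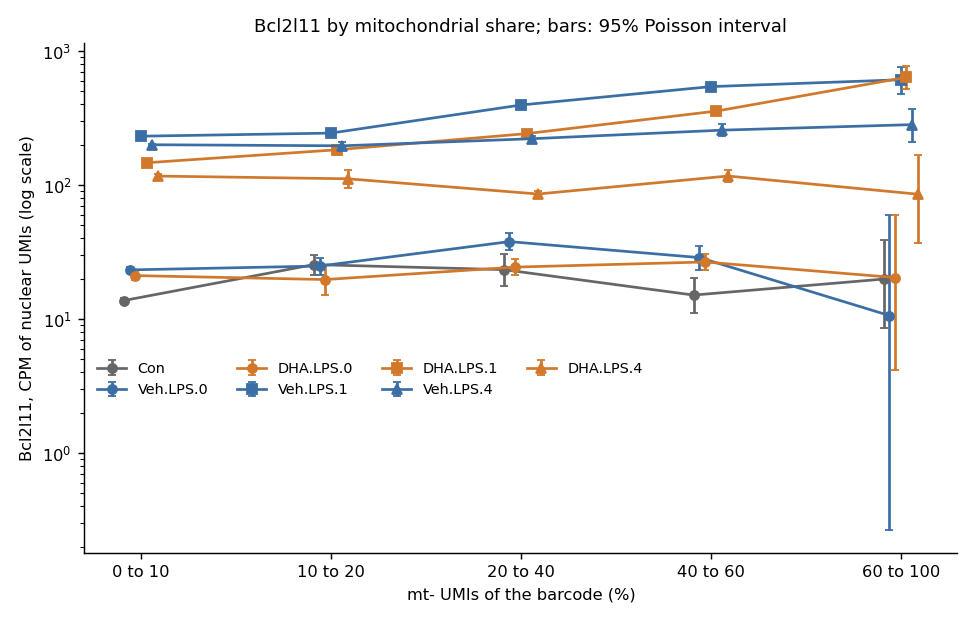
Bcl2l11 in CPM of nuclear UMIs (log axis) by the mt- share of the barcode, for each library, with 95% Poisson intervals; colours and symbols are grey for Con, blue for Veh, orange for DHA, circles for no LPS, squares for 1 h and triangles for 4 h. The level climbs with mt- share in both 1 h LPS libraries, from 231 to 609 in Veh.LPS.1 and 146 to 634 in DHA.LPS.1. The libraries without LPS stay under 40. Classes under 20% hold intact cells only, and those from 20% up have no limit on UMIs or genes.

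The high-mt barcodes also gave the condition comparisons again in barcodes that the values above did not use, though from the same libraries. On nuclear CPM, Bcl2l11 was 12.49-fold higher after 1 h of LPS in Veh (11.1 to 14.2) and 10.5-fold in DHA (9.53 to 11.6), and 6.66-fold and 3.56-fold after 4 h. Mcl1 was 3.24-fold and 3.34-fold higher at 1 h, and Bcl2a1b 8.18-fold and 5.83-fold at 4 h. For serum reduction, Bcl2l11 had a ratio of 1.82 (1.45 to 2.29), and Bbc3 went from 20.6 to 41.3 CPM. Bak1 had a ratio of 0.465 (0.400 to 0.539) and Bcl2a1d of 0.638 (0.589 to 0.691). All of these were past 1.5-fold, where in intact cells only Bcl2l11 was. At 1 h in Veh, Bcl2a1b had 1.88 and Bcl2a1d 1.55, against 1.498 and 1.32 in intact cells. Pmaip1 had 1.08 (0.830 to 1.42) there, against 1.41 in intact cells. With DHA, Bcl2l11 had ratios of 0.746, 0.628 and 0.399 at the 3 hours, Pmaip1 of 0.827, 0.622 and 0.365, and Bcl2a1d of 0.887, 0.667 and 0.661. These 3 genes were below Veh in both classes of barcodes at each hour, except that the interval of Pmaip1 without LPS included 1 in both. Mcl1, whose DHA ratio at 4 h was 1.08 in intact cells, had 0.914 (0.896 to 0.932) in high-mt barcodes. Bbc3 turned too, from 1.23 and 1.19 without LPS and at 1 h in intact cells to 0.914 (0.801 to 1.04) and 0.891 (0.766 to 1.04). So did Bid at 4 h, from 1.14 to 0.912 (0.797 to 1.05), and Bcl2l1 at 1 h, from 1.06 to 0.953 (0.857 to 1.06). Bcl2a1b without LPS went from 0.995 to 1.24 (1.14 to 1.35), and Bax at 1 h from 0.995 to 1.21 (1.17 to 1.26). Bak1 at 4 h went from 1.04 to 1.37 (1.18 to 1.58), and Bbc3 at 4 h from 0.846 to 0.654 (0.574 to 0.745). Bcl2l1 without LPS, Bak1 at 1 h and Bid without LPS and at 1 h also turned, with high-mt intervals that included 1.

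The Fano factor, the variance of the UMI count over its mean at 20000 UMIs per cell, had a median of 1.14 to 1.30 over genes with more than 1 UMI per cell. Bcl2a1b, Bcl2a1d and Mcl1 lay above that median in every library, at 1.68 to 2.64 in those without LPS. Bcl2l11 lay above it in the LPS libraries, and without LPS it held too few UMIs per cell to be among the genes of that median. How far this follows from the levels of these genes was not tested. Bcl2l1 in DHA.LPS.4, at 1.23, lay below the median of 1.28 there. Bak1 lay below it in Con, at 1.07 (median 1.14), and in the libraries without LPS, at 1.09 in Veh (median 1.16) and 1.04 in DHA (median 1.20). It also did so in the 1 h libraries, at 1.03 in Veh (median 1.18) and 1.09 in DHA (median 1.24). At 4 h Bak1 held under 1 UMI per cell, outside the genes of that median. Bid lay below it in Con, at 1.11. Members with fewer UMIs per cell, such as Pmaip1 with a mean of 0.12 in DHA.LPS.4, are outside the genes of that median. Bax had 1.35 to 1.63 in the 7 libraries. Bcl2l11 had 3.03 in Veh.LPS.1 and 4.56 in Veh.LPS.4, the median cell holding 3 UMIs and the 95th percentile 11 UMIs at 1 h, and 2 and 12 UMIs at 4 h. Bcl2a1d had 7.89 in Veh.LPS.4 and 5.12 in DHA.LPS.4, with medians of 22 and 13 UMIs and 95th percentiles of 49 and 30. Its 5th percentiles were 5 UMIs in Veh.LPS.4 and 3 UMIs in DHA.LPS.4. In those 2 libraries the lower level of Bcl2a1d with DHA was thus seen at the bottom, middle and top of the range of cells.

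Within single libraries, Bcl2a1b and Bcl2a1d varied together, with Pearson's r over cells from 0.14 in DHA.LPS.0 to 0.65 in DHA.LPS.4 and 0.72 in Veh.LPS.4. Such r values describe cells of 1 library, share its free RNA and, for these copies, their tags. Of the other pairs of members, the largest were Bcl2a1d with Mcl1 at 0.28 and 0.31 in the 1 h libraries of Veh and DHA, Bbc3 with Pmaip1 at 0.27 in Con and Mcl1 with Bcl2l11 at 0.23 in Veh.LPS.1. All of these are weak. On log counts, the genes outside the A1 copies most like Bcl2a1d in Veh.LPS.4 were Malt1, at 0.52, and Cybb, at 0.49, among 5353 genes over 993 cells. Those most like Mcl1 in Veh.LPS.1 were Junb and Nlrp3, both at 0.51, among 6225 genes over 3073 cells. Malt1 acts in NF-kB signalling, Cybb is a subunit of the phagocyte oxidase, Junb is an AP-1 factor and Nlrp3 an inflammasome sensor. These names were chosen after their values were seen.

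Across the 7 libraries, likeness of log2 CPM was taken over 6751 genes that spanned over 1.5-fold. The nearest to Bcl2l11 were Mir155hg, the host gene of an LPS-induced microRNA, Sowahc and Phlda1, with r of 0.995, 0.993 and 0.992. The nearest to Bcl2a1b were its copy Bcl2a1a, the chemokine gene Ccl12 and Rap1b, and those to Bcl2a1d were C1galt1c1, Gmfb and Nadk, with r from 0.991 to 0.998 among the 6 genes. Pmaip1 was nearest to Chst10 and Tob1, at 0.990 and 0.987. With 7 points in all, high values are found for many genes, and these are a description.

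Other genes of the family and pathway were taken from 4 lists. Of 15 further BCL2 family genes, 7 had enough cells in most comparisons, and Hrk and Bcl2l10 were at or near 0. Serum reduction gave 3 higher and 0 lower, Bnip3, Bnip3l and Bcl2, at 2.33, 1.77 and 1.76-fold (list median log2 0.54, all genes -0.07). After 1 h of LPS 1 gene of the list was higher, Bcl2a1a, and 1 lower, Bcl2, in both treatments (with TMM 1 and 0 in Veh). Bcl2, the founding survival gene, had a ratio of 0.650 after 1 h of LPS in Veh, going from 27.1 to 17.6 CPM, and of 0.309 after 4 h, at 8.38 CPM. At 4 h this was opposite to the 4 survival genes above. At 1 h only Mcl1 of those was higher past the limit, and Bcl2l1 was nearly level at 1.03. At 4 h in Veh 1 gene of the list was higher, Bcl2a1a, and 4 were lower, Bcl2, Bnip3, Bad and Bnip3l (list median -0.72, all genes -0.36; with TMM 1 and 2). In DHA these counts were 1 and 3 (with TMM 1 and 1). With DHA, Bnip3, a mitochondrial BH3-like protein of mitophagy, was by totals the one gene of the list past the limit at 1 h, with 137 against 89.3 CPM. The same held at 4 h, with 82.6 against 44.7 CPM (with TMM 1 higher and 1 lower), and none was past it without LPS.

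Of 19 genes of the death machinery downstream and its inhibitors, 2 passed the limit after 1 h of LPS in Veh, both higher: Cflar, which encodes the caspase-8 inhibitor c-FLIP and went from 46.9 to 288 CPM, and Birc3, an inhibitor of apoptosis, from 23.2 to 38.5 CPM. In DHA Cflar went from 48.3 to 273 CPM, and Birc3 and Xiap were also higher and Fadd lower (with TMM 4 higher and 0 lower). At 4 h in Veh 1 was higher, Cflar at 140 CPM, and 8 lower of 19, where 10.2% and 38.3% of all genes were (list median -0.49, all genes -0.36; with TMM 3 and 7). Among these were Htra2, which encodes a mitochondrial protease, from 87.2 to 21.8 CPM, and the caspase gene Casp6, from 19.8 to 6.02 CPM. In DHA at 4 h it was 2 higher and 9 lower of 19 (with TMM 3 and 5). Serum reduction gave 1 higher, Birc3, and DHA against Veh gave 0 of 19, 0 of 17 and 0 of 16 genes at the 3 hours (with TMM 1 lower at 4 h), with list medians of -0.02, -0.05 and 0.11 beside all-gene medians of -0.05, -0.05 and 0.08.

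A list of 10 genes was taken around p53, which drives Bbc3 and Pmaip1 in other settings. At 1 h in Veh 3 were higher and 0 lower of 9 with enough cells (4.15% and 4.24% of all genes; list median 0.09, all genes -0.10). The 3 were Mdm2, the p53 ubiquitin ligase, from 104 to 361 CPM, the cell cycle inhibitor Cdkn1a, from 511 to 978 CPM, and Sesn2, from 19.2 to 30.4 CPM. In DHA 3 were higher and 0 lower of 10 (4.66% and 4.97% of all genes). Bbc3 was lower at 1 h in both treatments, by 0.33 in Veh and 0.37 in DHA on the log2 scale, short of the limit. Pmaip1 had log2 ratios of 0.50 in Veh and 0.01 in DHA at that hour, also short of the limit by totals. At 4 h in Veh, 1 was higher, Sesn2, and 4 lower, led by Phlda3, from 99.6 to 25.2 CPM, of 9 with enough cells (38.3% of all genes were lower; list median -0.48, all genes -0.36; with TMM 2 and 3). In DHA it was 0 and 5 (with TMM 1 and 4). No gene of this list was past the limit with serum reduction (with TMM 1 lower) or with DHA at any hour.

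Of 7 stress factors and FoxO-linked genes, serum reduction gave 3 higher: Atf3, Trib3 and Ddit3, at 3.93, 2.91 and 2.90-fold (list median log2 1.01, all genes -0.07). The same 3 were higher with DHA without LPS, Ddit3, the CHOP gene, at 2.30-fold, Trib3 at 1.84 and Atf3 at 1.56, where Bbc3 had 1.23 and Bcl2l11 0.896. At 1 h in Veh, Atf3 and Atf4 were higher, at 3.64 and 1.72-fold, and Txnip lower, from 208 to 37.7 CPM. In DHA 2 were higher and 2 lower at that hour. At 4 h in Veh 4 were higher, led by Atf3, from 39.7 to 419 CPM, and Chac1, from 6.67 to 28.4 CPM, and 2 were lower, Foxo3 and Txnip (list median 1.42, all genes -0.36; with TMM 5 and 0). In DHA at 4 h these counts were 3 and 2 (with TMM 4 and 1). With DHA, Trib3 was 1.89-fold higher at 1 h, and Atf3 had a ratio of 0.623 at 4 h.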

How the data were processed

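Fetal liver-derived macrophages were profiled by 3′ droplet RNA sequencing in 7 libraries, 1 per condition. The authors deposited UMI counts per gene and barcode, unnormalized, made with Cell Ranger 3.1.0 on mm10 per the submitters' processing notes; the study's methods name another version of that program. No later filter had been applied to the barcodes, and doublets were not called here. From the deposited counts, UMIs were summed over intact cells (over 20000 UMIs, at least 2000 genes, under 20% mt- UMIs) and over barcodes with at least 20% mt- UMIs, and scaled to CPM by totals, or by TMM factors of edgeR 4.0.16 (R 4.3.3) as an alternative. Everything else was computed in Python 3.11.15 with scipy 1.17.1.

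Ratios of CPM have exact (Clopper-Pearson) 95% intervals on the split of the summed UMIs, levels have exact Poisson intervals and shares exact binomial ones. UMIs within a cell, and cells within a culture, are not independent, so all of these cover counting error alone. The computation of ratios and intervals was tested on simulated Poisson counts with known fold changes. The intervals assume such counts, so that test cannot show how they cover the spread of real cells or cultures. Genes past 1.5-fold were counted among those detected in 25% or more of the cells of a library compared. Thinning drew 20000 UMIs per cell, or 1000 nuclear UMIs per barcode, without replacement.

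All 10 genes are named. Of 4 further lists (other BCL2 genes, death machinery, p53 genes, stress and FoxO genes), up to 4 genes per comparison past the limits were to be named, those with the largest ratios. Up to 3 nearest genes by likeness over libraries are named for the 4 genes of widest span. Some genes that these rules would name are not reported here. Members and lists were chosen with earlier results of these data known. Bnip3l, Foxo3 and Txnip at 4 h in Veh lie outside this rule and were chosen after their values were seen. The split by Mki67 and the likeness over cells were added after seeing the data. The split between Bcl2a1 copies depends on how tags were placed by the counting program.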

Additional observations from a re-analysis of the deposited data

Results flagged for a closer look

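The following DHA effects pointed in opposite directions at different hours of LPS, as log2 ratios of DHA over Veh. With 1 library per condition none of these differences was tested. Bcl2a1b had 0.11 at 1 h and -0.34 at 4 h, but the first became -0.22 with no filter on barcodes and was 0.01 in high-mt barcodes. Mcl1 had -0.11 without LPS and -0.15 at 1 h, against 0.11 at 4 h, and the last of these became -0.01 with TMM and -0.10 with no filter. Bcl2l1 had 0.09 at 1 h and -0.16 at 4 h, and the first became -0.13 with no filter and was -0.07 in high-mt barcodes. Bbc3 had 0.29 without LPS and 0.25 at 1 h, against -0.24 at 4 h. With no filter the first values became -0.05 and -0.12, and in high-mt barcodes the ratios were -0.13, -0.17 and -0.61, all in the same direction. Bid had -0.26 without LPS and -0.16 at 1 h, against 0.18 at 4 h, which became -0.24 with no filter and was -0.13 in high-mt barcodes.

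Bid also differed in the direction of its 4 h LPS effect, with a log2 ratio of -0.13 in Veh and 0.31 in DHA. With TMM both were positive, at 0.30 and 0.61, and in high-mt barcodes the order was the other way, with 0.11 in Veh and -0.02 in DHA. None of the ratios above reached 1.5-fold in intact cells in the main scaling. In high-mt barcodes Bbc3 did so with DHA at 4 h, at a ratio of 0.654.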

How the results depend on the processing

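Of the counts of members past 1.5-fold, 61 of 70 values under another setting stayed within 1.5 times the main count, and 9 did not. For serum reduction the main count of 1 became 2 with TMM, with a limit of 10% mt- UMIs and with no filter on barcodes (1 higher and 1 lower each), 2 with cells thinned to 20000 UMIs (both higher), and 0 when genes had to be detected in 50% or more of cells, a share that Bcl2l11 did not reach. After 1 h of LPS in Veh it became 4 with TMM. With no filter on barcodes the DHA count became 1 without LPS and 2 at 1 h, all lower (Bcl2a1d, and at 1 h Pmaip1 in place of Bcl2l11), and Bbc3, at a log2 ratio of 0.29 and 0.25 in the main setting, had -0.05 and -0.12. Between barcode classes it became 5, all lower, when mt- UMIs were kept in the totals. Of 656 log2 ratios of single members, 439 moved by less than the counting interval and 217 by more, and no ratio past the limit changed direction. Under these settings the DHA log2 ratio of Bcl2a1d ran from -0.78 to -0.27 without LPS, from -0.81 to -0.19 at 1 h and from -1.01 to -0.55 at 4 h, the sum of the copies among them, and that of Bcl2l11 from -0.68 to -0.53 at 1 h and from -1.11 to -0.59 at 4 h.

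No paired analysis was possible because the labels carry no replicate numbers and each condition has 1 library. With 1 library per condition none was left out in turn. Depth limits Pmaip1 most, with 128 UMIs in DHA.LPS.4.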
